A study of Mus musculus with 2 samples.

Results

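A set of 10 genes that restrain the cell cycle or belong to the p53 pathway was followed in fibroblastic stromal cells of the mouse lung, from mice given high fat food (HFD) or normal chow (NC). It is 10 of the 21014 genes in the deposited tables and was taken by name. The set comprises the CDK inhibitors Cdkn1a, Cdkn1b, Cdkn1c, Cdkn2b and Cdkn2c, the transcription factor Trp53 with its regulator Mdm2, and Gadd45a, Gadd45b and Gadd45g. Both groups were C57Bl/6J mice, fed the HFD or NC for 16 weeks, and each group is a single library made with a 10x Genomics 3′ v3 single-cell kit. The labels give neither the number, sex nor age of the animals, nor whether animals were pooled. Because each diet has a single library, no test was possible, and each difference is one between these libraries.

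CDK inhibitors bind cyclin-dependent kinases and hold cells before DNA synthesis. The Cip/Kip proteins p21 (Cdkn1a), p27 (Cdkn1b) and p57 (Cdkn1c) act on several cyclin-kinase complexes, and the INK4 proteins p15 (Cdkn2b) and p18 (Cdkn2c) act on Cdk4 and Cdk6. The factor p53 induces Cdkn1a, Mdm2 and Gadd45a after DNA damage, and the Mdm2 protein returns p53 to degradation. The Gadd45 proteins bind stress kinases and the DNA replication clamp and are induced by many stresses. In the resting lung most fibroblasts are out of the cell cycle, and these genes are also used by quiescent cells.

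The cells kept (500 genes or more, mitochondrial share up to 10%) numbered 6089 in HFD and 8140 in NC. They fell into the 5 classes of the deposited annotation, with 3092 HFD and 3999 NC Asc1 fibroblasts, 1095 and 2002 Gas6 fibroblasts, 796 and 1222 Pi16 fibroblasts, 510 and 667 myofibroblasts, and 596 and 250 cells of a class labelled pericytes. The first 4 classes are pooled below as fibroblasts. Median depth was 10045 counts per HFD cell and 7524 per NC cell, and within each class HFD cells were 1.28 to 1.38 times as deep. Levels are given as CPM, the counts of a gene per 1000000 counts, summed over the cells of a class. The intervals are 95% counting intervals, widened for the spread of counts seen in rare genes, and they do not cover differences between animals. Abundant genes held more counts per positive cell, such as 96083 Gadd45b counts in 3976 HFD fibroblasts and 11756 Cdkn1a counts in 1134. Intervals of such genes are therefore too narrow. The class labels were matched by Slc7a10, which encodes the transporter Asc-1, at 218 and 138 CPM in the Asc1 class of HFD and NC and at most 67.8 CPM in any other class. Gas6 itself was not particular to its class (250.3 and 309 CPM in the Gas6 class, 279 and 277 CPM in the Pi16 class). The class labelled pericytes was marked by the smooth muscle gene Acta2 (12769 and 12126 CPM). Of the pericyte genes, Cspg4 (134 and 99.8 CPM) and Notch3 (126 and 87.3 CPM) were highest in this class. Higd1b was at 3.86 and 2.04 CPM there and was highest in myofibroblasts, at 69.0 CPM in HFD and 26.2 CPM in NC. Ptprc, Pecam1, Epcam and Msln, which mark immune, endothelial, epithelial and mesothelial cells, had 0 counts in the kept cells, which allows up to 0.0493% of HFD and 0.0369% of NC cells with a count by a limit of 3 counts. Other markers of those cells were present, and the summed lists came to 38.0 CPM in HFD and 55.5 CPM in NC fibroblasts for 9 immune markers, 38.2 and 27.1 CPM for 7 epithelial markers, 5.47 and 6.94 CPM for 6 endothelial markers and 4.14 and 4.30 CPM for 5 mesothelial markers. An immune marker count was held by 474 kept HFD and 940 kept NC cells, and the epithelial sum was mostly Scgb1a1 (31.2 and 21.9 CPM). Their part in the results was not tested, other than by leaving out the immune-positive cells. The tables share 17 cell barcodes, and the number of the 10 genes past the size rule below was the same without them.

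The promoter windows of Cdkn1a and Cdkn2c, the genes past 1.5-fold in the pooled fibroblasts, and of the 3 Gadd45 genes, which differ in class pattern, are shown here, since the p53 response element is what makes Cdkn1a a textbook p53 target. RefSeq windows (GRCm38.p6, 250 bases before to 50 after a transcript start) were found for 9 of the 10 genes, 11 windows in all. Capitals mark matches to the p53 response element (a pair of 10-base half-sites, up to 13 bases apart, with at most 1 mismatch) or to CACGTG, an E-box, on either strand. The motifs TGANTCA and TGACGTCA (sites of AP-1 and CREB) and the palindromic glucocorticoid response element were searched too and have no match in the windows printed.
Cdkn1a upstream start, chr17:29090729-29091028, plus strand: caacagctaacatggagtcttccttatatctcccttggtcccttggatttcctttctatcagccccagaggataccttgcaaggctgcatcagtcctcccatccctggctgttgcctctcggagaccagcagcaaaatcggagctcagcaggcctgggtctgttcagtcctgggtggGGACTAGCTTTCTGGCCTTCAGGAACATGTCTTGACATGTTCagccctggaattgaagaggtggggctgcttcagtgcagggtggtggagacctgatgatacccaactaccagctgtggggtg
Cdkn1a downstream start, chr17:29093519-29093818, plus strand: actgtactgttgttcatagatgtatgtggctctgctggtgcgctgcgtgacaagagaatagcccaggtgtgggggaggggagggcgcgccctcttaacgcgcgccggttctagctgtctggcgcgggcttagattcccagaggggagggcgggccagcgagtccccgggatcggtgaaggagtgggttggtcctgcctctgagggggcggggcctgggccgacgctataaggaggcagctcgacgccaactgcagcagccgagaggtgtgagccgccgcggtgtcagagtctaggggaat
Cdkn2c upstream start, chr4:109666707-109667006, minus strand: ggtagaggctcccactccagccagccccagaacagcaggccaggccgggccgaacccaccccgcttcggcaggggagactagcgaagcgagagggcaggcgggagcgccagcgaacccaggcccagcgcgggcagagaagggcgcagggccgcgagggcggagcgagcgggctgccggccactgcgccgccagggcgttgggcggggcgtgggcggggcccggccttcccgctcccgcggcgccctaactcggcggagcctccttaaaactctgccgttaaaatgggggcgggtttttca
Cdkn2c downstream start, chr4:109665323-109665622, minus strand: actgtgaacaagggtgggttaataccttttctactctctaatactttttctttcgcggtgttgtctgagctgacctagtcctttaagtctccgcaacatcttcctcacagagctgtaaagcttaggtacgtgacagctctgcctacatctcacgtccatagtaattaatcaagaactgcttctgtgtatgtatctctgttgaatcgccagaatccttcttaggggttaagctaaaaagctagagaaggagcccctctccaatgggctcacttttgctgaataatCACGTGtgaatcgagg
Gadd45a, chr6:67037358-67037657, minus strand: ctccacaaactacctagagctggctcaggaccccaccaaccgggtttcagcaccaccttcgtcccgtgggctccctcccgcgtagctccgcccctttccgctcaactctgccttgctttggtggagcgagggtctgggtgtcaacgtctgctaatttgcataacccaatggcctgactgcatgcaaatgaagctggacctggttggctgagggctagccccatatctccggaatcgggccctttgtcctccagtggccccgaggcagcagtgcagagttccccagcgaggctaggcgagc
Gadd45b, chr10:80929841-80930140, plus strand: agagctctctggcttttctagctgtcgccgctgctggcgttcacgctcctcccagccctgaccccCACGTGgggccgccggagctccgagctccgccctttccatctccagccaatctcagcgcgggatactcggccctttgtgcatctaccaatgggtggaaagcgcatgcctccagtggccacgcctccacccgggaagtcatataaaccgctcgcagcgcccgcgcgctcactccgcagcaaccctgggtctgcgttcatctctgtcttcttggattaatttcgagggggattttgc
Gadd45g, chr13:51846425-51846724, plus strand: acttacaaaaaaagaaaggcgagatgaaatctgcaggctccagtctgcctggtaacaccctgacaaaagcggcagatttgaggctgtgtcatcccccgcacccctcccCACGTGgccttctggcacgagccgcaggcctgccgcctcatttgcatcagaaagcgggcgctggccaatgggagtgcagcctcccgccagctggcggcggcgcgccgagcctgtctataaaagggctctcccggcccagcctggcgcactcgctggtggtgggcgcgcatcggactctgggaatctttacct
The upstream Cdkn1a window holds a pair of overlapping p53 matches, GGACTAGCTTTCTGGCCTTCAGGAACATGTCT and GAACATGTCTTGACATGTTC, which share a half-site. Of 32851 promoter windows in the table, 0.417% hold such a match. The E-box CACGTG, in 7.15% of all windows, is found once in Gadd45b, in Gadd45g, in Trp53 and in the downstream Cdkn2c window. TGACGTCA, in 1.79% of windows, is found in Cdkn2b among the members, and TGANTCA (7.81%) and the glucocorticoid response element (0.00913%) in none. The latter was searched as an exact palindrome without mismatch, found in 3 of all windows. Its absence here therefore says nothing about looser receptor sites. The CG content was 54.7% in the upstream Cdkn1a window and 73.3% in the upstream Cdkn2c window, against a median of 52.7% over all windows. These are descriptions of the letters in these windows, and the tables do not say which start the cells used.

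Cdkn1a was lower in HFD fibroblasts and Cdkn2c was higher, and the other 7 measured genes stayed within 1.5-fold. A gene counted as measured when both libraries together gave 50 or more effective counts (counts divided by 4.85 in HFD and 3.98 in NC, the spread of rare genes), and a ratio of at least 1.5 either way was called higher or lower by size. Among all 13422 genes measured in the pooled fibroblasts, 5.45% were higher and 4.75% lower by this rule (10.2% either way), and the count of 1 of 9 higher and 1 of 9 lower is too small to be told from that background. The median log2 ratio of the 9 genes was −0.06, against 0.02 over all genes, and 7 of the 9 had a ratio below 1. Of all measured genes 3.02% had a lower ratio than Cdkn1a, and 97.5% had a lower ratio than Cdkn2c.

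**Figure D1:**
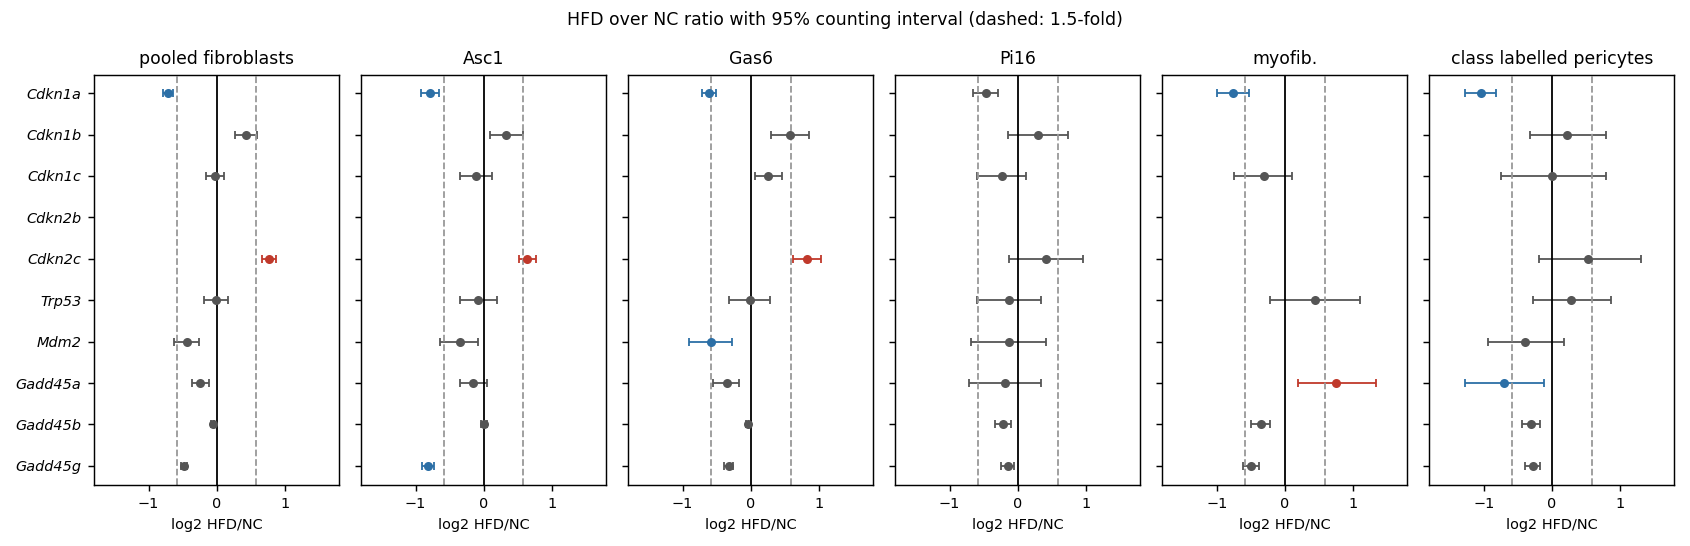
HFD over NC ratio (log2) of each measured gene in the pooled fibroblasts and in each class, with 95% counting intervals as bars and 1.5-fold as dashed lines; red points are higher and blue points lower by size. Cdkn1a lies left of 0 in every panel (ratios 0.484 to 0.721), and Cdkn2c lies right of 0 in each panel that shows it.

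Cdkn1a, the p21 inhibitor and best-known p53 target, was at 203 CPM in HFD fibroblasts and 334 CPM in NC fibroblasts, a ratio of 0.609 (0.580 to 0.639). By class, in HFD and NC, it was at 136 and 234 CPM in Asc1 fibroblasts, 274 and 420.2 CPM in Gas6 fibroblasts, 203 and 282 CPM in Pi16 fibroblasts, 321 and 542 CPM in myofibroblasts, and 133 and 275 CPM in the class labelled pericytes. The HFD value was thus the lower one in all 5 classes, and the HFD and NC intervals overlapped in none of them. The ratio was 0.484 (0.415 to 0.566) in the class labelled pericytes, 0.580 (0.531 to 0.634) in Asc1 fibroblasts, 0.592 (0.503 to 0.694) in myofibroblasts, 0.652 (0.608 to 0.699) in Gas6 fibroblasts and 0.721 (0.632 to 0.821) in Pi16 fibroblasts, the last within the size rule. Myofibroblasts had the highest Cdkn1a level in both libraries, 2.41 times the lowest class in HFD and 2.32 times in NC. Their interval overlapped that of Gas6 fibroblasts in HFD and not in NC. Depth differed between the libraries, and the direction in Gas6 fibroblasts turned in the shallower cells. There the ratio was 1.18 among cells of 4000 to 12000 counts, a range that holds 10.2% of HFD (112 cells) and 45.5% of NC (911 cells) Gas6 fibroblasts, and 0.586 among the 933 HFD and 1066 NC cells of 12000 to 30000 counts. Cdkn1a, Cdkn1c and Gadd45a each overlap 1 gene of the opposite strand, AC167363.2, Gm44732 and E230016M11Rik in that order. Whether counting was by strand is not given, and without strand the reads of each pair cannot be told apart.

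Cdkn2c, the INK4 inhibitor p18, was higher in HFD, at 147 CPM in HFD fibroblasts and 86.5 CPM in NC fibroblasts (ratio 1.70, 1.59 to 1.83). Asc1 fibroblasts of HFD and NC had 234 and 149.5 CPM, with 103 and 58.01 CPM in Gas6 fibroblasts, 33.3 and 25.04 CPM in Pi16 fibroblasts, 27.5 and 19.05 CPM in the class labelled pericytes and 20.3 and 11.3 CPM in myofibroblasts. The order of the classes was the same in both libraries, with the Asc1 class 11.5 times the myofibroblasts in HFD and 13.2 times in NC. Only the intervals of the 3 lowest classes overlapped those of a neighbour. The ratio passed 1.5 in Asc1 (1.56, 1.44 to 1.70) and Gas6 fibroblasts (1.78, 1.54 to 2.04). It was 1.33 (0.911 to 1.94) in Pi16 fibroblasts and 1.45 (0.882 to 2.47) in the class labelled pericytes, where it was 1.54 without the 2% of cells of each library with the most Cdkn2c counts. Myofibroblasts had too few counts to be measured. In Asc1 fibroblasts the ratio was 1.49 among cells of 4000 to 12000 counts and 1.45 among those of 12000 to 30000, both just under the size rule. In Pi16 fibroblasts it was 1.69 among cells of 4000 to 12000 counts and 1.63 without the top 2% of cells. With cells thinned to 2000 counts, the ratio was 1.145 in Pi16 fibroblasts and 1.139 in the class labelled pericytes. The marker Slc7a10 was also at 218 CPM in HFD and 138 CPM in NC within the Asc1 class, and at 67.8 and 31.9 CPM within the Gas6 class; its part in the Cdkn2c difference was not tested.

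The other Cip/Kip genes stayed within the size rule in every class where they were measured, and several settings moved a value past it. Cdkn1b, the p27 inhibitor of quiescent cells, was at 50.6 CPM in HFD and 37.4 CPM in NC fibroblasts (ratio 1.35, 1.21 to 1.51). Its HFD value was the higher one in all 5 classes, though myofibroblasts had too few counts to be measured. The HFD and NC levels were 53.98 and 42.9 CPM in Asc1, 50.6 and 33.99 CPM in Gas6 and 48.1 and 39.1 CPM in Pi16 fibroblasts, 31.5 and 19.6 CPM in myofibroblasts and 40.3 and 34.5 CPM in the class labelled pericytes. The interval excluded 1 in Asc1 (1.26, 1.06 to 1.49) and Gas6 fibroblasts (1.49, 1.23 to 1.81), and not in Pi16 fibroblasts (1.23, 0.905 to 1.67) or the class labelled pericytes (1.17, 0.803 to 1.74). The Gas6 ratio, just under 1.5, was 1.64 without cells that held a count of an immune marker, 1.74 without the top 2% of cells and 0.791 among cells of 4000 to 12000 counts. In Asc1 fibroblasts of 12000 to 30000 counts, which include 35 NC cells, the Cdkn1b ratio was 0.837. In Pi16 fibroblasts it was 1.61 with cells thinned to 2000 counts, and in the pooled fibroblasts it was 1.58 without the top 2% of cells, past the size rule. No class was set apart from its neighbour in the order of Cdkn1b levels, in either library.

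Cdkn1c, the imprinted p57 inhibitor, was at 68.7 CPM in HFD and 69.6 CPM in NC fibroblasts (0.988, 0.902 to 1.08). Its level spread more between classes than between diets, with 110.4 CPM in HFD and 137 CPM in NC myofibroblasts, 89.4 and 74.7 CPM in Gas6, 60.8 and 71.5 CPM in Pi16 and 50.5 and 54.4 CPM in Asc1 fibroblasts, and 19.3 and 19.3 CPM in the class labelled pericytes. The order was the same in both libraries, and myofibroblasts were clear of Gas6 fibroblasts in NC only. Its log2 ratio in Gas6 fibroblasts exceeded that of the other fibroblasts together by 0.43 (0.17 to 0.69). The Cdkn1c ratio in Pi16 fibroblasts was 0.591 among cells of 4000 to 12000 counts and 1.55 among those of 12000 to 30000, and in the deeper Asc1 cells it was 1.59. In the class labelled pericytes it was 0.801 with thinned cells and 0.857 without the top 2% of cells.

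Cdkn2b, the INK4 inhibitor p15 induced by TGF-beta, was seen in 10 of 5493 fibroblasts from HFD (0.182%, 53 counts) and 15 of 7890 from NC (0.190%, 61 counts), too few to be measured. No HFD myofibroblast (0 of 510 cells, which allows up to 0.588% by a limit of 3 counts) and 1 of 667 NC myofibroblasts held a Cdkn2b count.

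**Figure D2:**
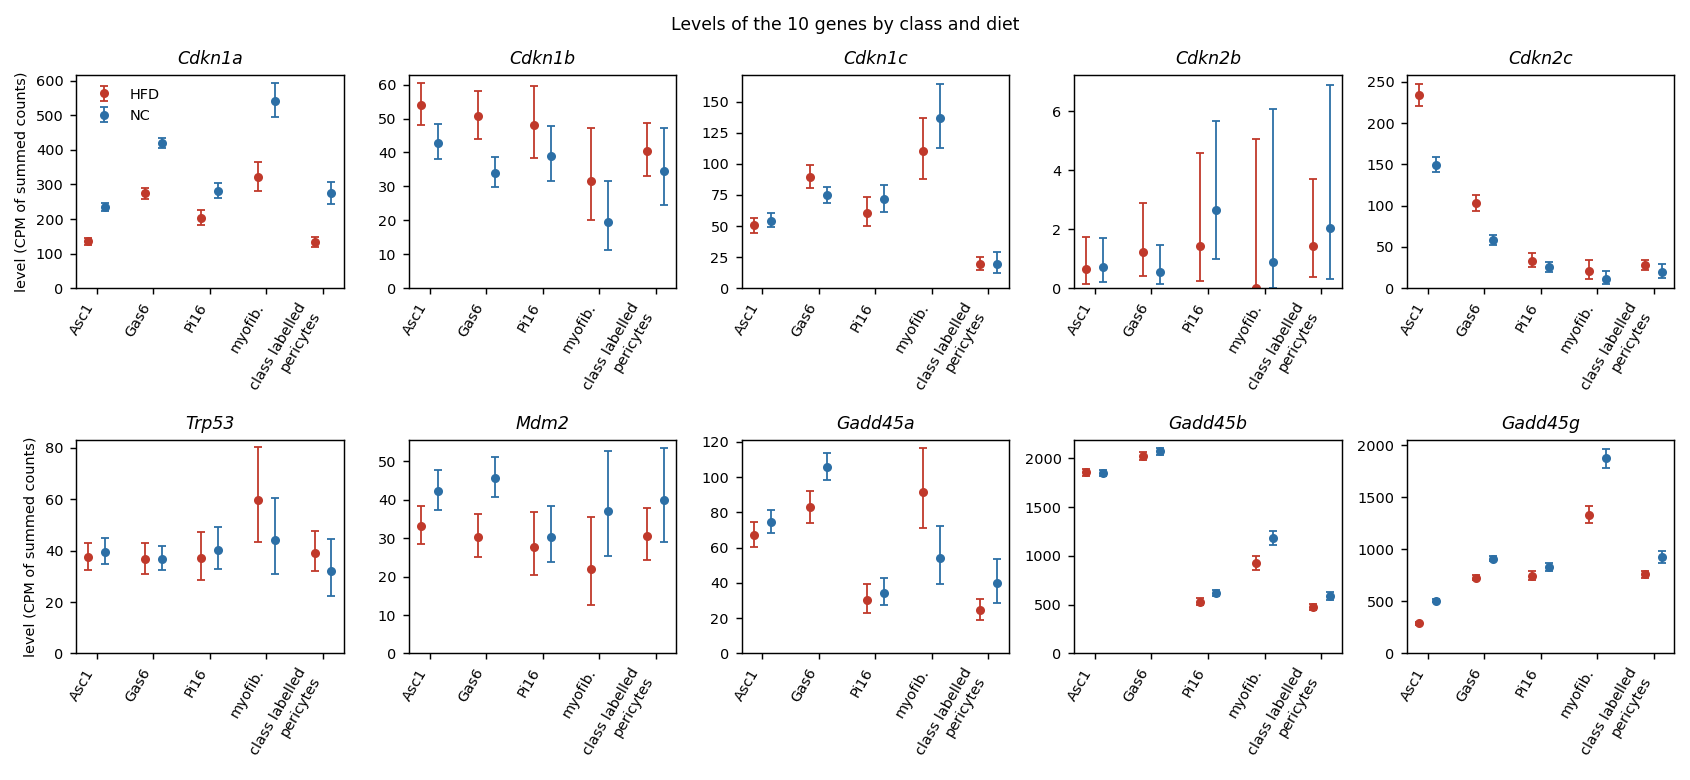
Level (CPM of summed counts, linear axis from 0) of the 10 genes in the 5 classes, HFD in red left of NC in blue, with 95% counting intervals as bars. Cdkn2c is highest in Asc1 fibroblasts (234 CPM in HFD, 149.5 CPM in NC) and lowest in myofibroblasts (20.3 and 11.3 CPM), and Cdkn1a, Cdkn1c and Gadd45g are highest in myofibroblasts in both libraries.

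Trp53 transcripts, which encode p53 itself, were at 38.5 CPM in HFD and 38.8 CPM in NC fibroblasts (0.992, 0.878 to 1.12). In the classes they were, in HFD and NC, at 37.5 and 39.6 CPM in Asc1, 36.6 and 36.8 CPM in Gas6 and 37.0 and 40.4 CPM in Pi16 fibroblasts, 59.7 and 43.99 CPM in myofibroblasts and 39.3 and 32.2 CPM in the class labelled pericytes. All 6 intervals of the ratio held 1, and no neighbours in the class order were separate in either library. Among Gas6 fibroblasts of 4000 to 12000 counts the Trp53 ratio was 0.512. The p53 protein is regulated mainly through its stability, which transcript counts do not measure. Mdm2, the ubiquitin ligase of p53 and a p53 target, was at 30.7 CPM in HFD and 41.7 CPM in NC fibroblasts (0.736, 0.647 to 0.837), and without the top 2% of cells the ratio was 0.635, past the size rule.

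Mdm2 levels in HFD and NC were 33.1 and 42.3 CPM in Asc1, 30.4 and 45.7 CPM in Gas6 and 27.8 and 30.4 CPM in Pi16 fibroblasts, 21.96 and 37.2 CPM in myofibroblasts and 30.5 and 39.9 CPM in the class labelled pericytes. The HFD value was the lower one in all 5 classes, though myofibroblasts had too few counts to be measured. The ratio passed the size rule in Gas6 fibroblasts (0.665, 0.535 to 0.823), at its edge, and with no cell filter it was 0.669, just short of it. It was 0.782 (0.644 to 0.948) in Asc1 fibroblasts, with 1.66 among the cells of 12000 to 30000 counts (443 HFD, 35 NC). In Pi16 fibroblasts it was 0.913 (0.621 to 1.33), and 1.02 under a filter of 1000 genes and a 5% mitochondrial share. In the class labelled pericytes the Mdm2 ratio was 0.764 (0.524 to 1.13).

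The 3 Gadd45 genes differed in their class patterns. Gadd45b, induced early by stress and TGF-beta, was at 1662.5 CPM in HFD and 1731 CPM in NC fibroblasts (0.960, 0.943 to 0.978). It was at 2026 CPM in HFD and 2073 CPM in NC Gas6 fibroblasts, and at 1857 and 1852 CPM in Asc1 and 532 and 620.2 CPM in Pi16 fibroblasts, 924 and 1181 CPM in myofibroblasts and 476 and 588 CPM in the class labelled pericytes. The class order was the same in both libraries, and only the lowest pair, Pi16 fibroblasts and the class labelled pericytes, overlapped. Set against the other fibroblasts, its log2 ratio was higher in Asc1 fibroblasts by 0.15 (0.09 to 0.20), and the difference was −0.17 (−0.29 to −0.05) in Pi16 fibroblasts, −0.31 (−0.46 to −0.17) in myofibroblasts and −0.25 (−0.39 to −0.11) in the class labelled pericytes. In that last class the ratio was 0.809 (0.735 to 0.890), and 0.630 among cells of 12000 to 30000 counts.

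Gadd45g, a stress-induced relative, was at 567 CPM in HFD and 791 CPM in NC fibroblasts (0.717, 0.696 to 0.738). Class levels in HFD and NC were 288 and 508 CPM in Asc1, 727 and 909 CPM in Gas6 and 745 and 827 CPM in Pi16 fibroblasts, 1331 and 1873 CPM in myofibroblasts and 761 and 923 CPM in the class labelled pericytes. The HFD value was below the NC value in all 5 classes, and the HFD and NC intervals were separate in each. The ratio was 0.568 (0.534 to 0.603) in Asc1 fibroblasts, past the size rule, 0.710 (0.655 to 0.770) in myofibroblasts, 0.800 (0.765 to 0.836) in Gas6 fibroblasts, 0.824 (0.764 to 0.889) in the class labelled pericytes and 0.901 (0.840 to 0.967) in Pi16 fibroblasts. The Asc1 log2 ratio lay below that of the other fibroblasts (difference −0.54, −0.64 to −0.44, an interval too narrow for so abundant a gene). Among Asc1 cells of 12000 to 30000 counts, which include 35 NC cells, the ratio was 0.341. In the class labelled pericytes it was 1.11 under a filter of 1000 genes and a 5% mitochondrial share, where the median mitochondrial share of that class was 6.13% in HFD and 5.72% in NC before that filter.

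Gadd45a, the p53-responsive member, was at 68.4 CPM in HFD and 80.7 CPM in NC fibroblasts (0.848, 0.776 to 0.926). Levels in HFD and NC were 67.05 and 74.6 CPM in Asc1, 82.8 and 105.9 CPM in Gas6 and 30.3 and 34.3 CPM in Pi16 fibroblasts, 91.5 and 54.1 CPM in myofibroblasts and 24.4 and 39.7 CPM in the class labelled pericytes. Myofibroblasts were the one class with the higher HFD value (1.69, 1.14 to 2.52), and the class labelled pericytes had the lowest ratio (0.614, 0.413 to 0.920), both past the size rule. The myofibroblast log2 ratio exceeded that of the other fibroblasts by 1.05 (0.50 to 1.61). These values rest on few cells. In myofibroblasts 42 of 510 HFD cells (8.24%) and 42 of 667 NC cells (6.30%) held a count, and the 10 cells with the most Gadd45a held 59.7% of the HFD counts and 45.1% of the NC counts. Without the 2% of cells with the most Gadd45a counts (10 HFD and 13 NC myofibroblasts, 12 HFD and 5 NC cells of the class labelled pericytes) the ratios were 1.55 and 0.570, both still past the size rule. With the 10 cells of each library with the most Gadd45a counts left out instead, they were 1.248 and 0.864, both within it. Asc1 cells of 12000 to 30000 counts gave 1.28. Immune marker genes summed to 151 CPM in HFD and 51.4 CPM in NC myofibroblasts, over 9 markers of which 2 were measured and Ptprc was at 0, and without cells holding such a count the Gadd45a ratio was 1.67.

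Over the classes, 3 of the 42 measured class values were higher by size and 7 lower. In Asc1 fibroblasts 1 of 9 genes was higher and 2 lower, where 4.88% of all genes were higher and 5.46% lower (10.3% either way). In Gas6 fibroblasts 1 was higher and 2 lower (all genes 6.08% and 5.91%, 12.0% either way), and in Pi16 fibroblasts 0 and 0 (5.70% and 5.88%, 11.6% either way). Of the 6 genes measured in myofibroblasts 1 was higher and 1 lower (7.62% and 7.94%, 15.6% either way). In the class labelled pericytes 0 of 9 were higher and 2 lower (11.4% and 6.77%, 18.2% either way). The lower values were Cdkn1a in 4 classes, Gadd45g in Asc1 fibroblasts, Mdm2 in Gas6 fibroblasts and Gadd45a in the class labelled pericytes. The classes of a library share its handling and depth, so a shared direction is no separate support.

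For the abundant genes the difference also stood in how many cells held a count. Every cell was thinned to 2000 counts, which left out 3 HFD and 25 NC fibroblasts. Cdkn1a was then found in 13.8% of the HFD fibroblasts (12.9 to 14.7%) and 22.9% of the NC fibroblasts (22.0 to 23.9%), against 20.6% and 32.3% before thinning. Cdkn2c was found in 16.5% of the HFD fibroblasts (15.5 to 17.5%) and 10.2% of the NC fibroblasts (9.54 to 10.9%), against 26.8% and 17.5% before thinning. Both pairs of intervals were separate, in opposite directions. Gadd45g was found in 25.6% of HFD and 35.4% of NC thinned cells (33.5% and 43.0% unthinned), and Gadd45b in 62.0% and 66.4% (72.4% and 75.3% unthinned). The thinned share of Cdkn1b was 6.92% in HFD (6.26 to 7.63%) and 4.93% in NC (4.47 to 5.44%; 14.3% and 10.4% unthinned), and that of Mdm2 3.97% (3.47 to 4.52%) and 5.25% (4.77 to 5.77%; 8.54% and 10.6% unthinned). The HFD and NC intervals overlapped for Cdkn1c (6.99% and 7.92%), Trp53 (4.90% and 4.96%) and Gadd45a (7.09% and 8.26%). Unthinned, these were 13.4% and 14.6% for Cdkn1c, 10.1% and 9.92% for Trp53, and 12.9% and 14.5% for Gadd45a. No class here should lack these genes, so no background share from free RNA could be set beside them. Positive cells of rare genes held several counts each, so the mean count of a positive cell was not read.

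**Figure D3:**
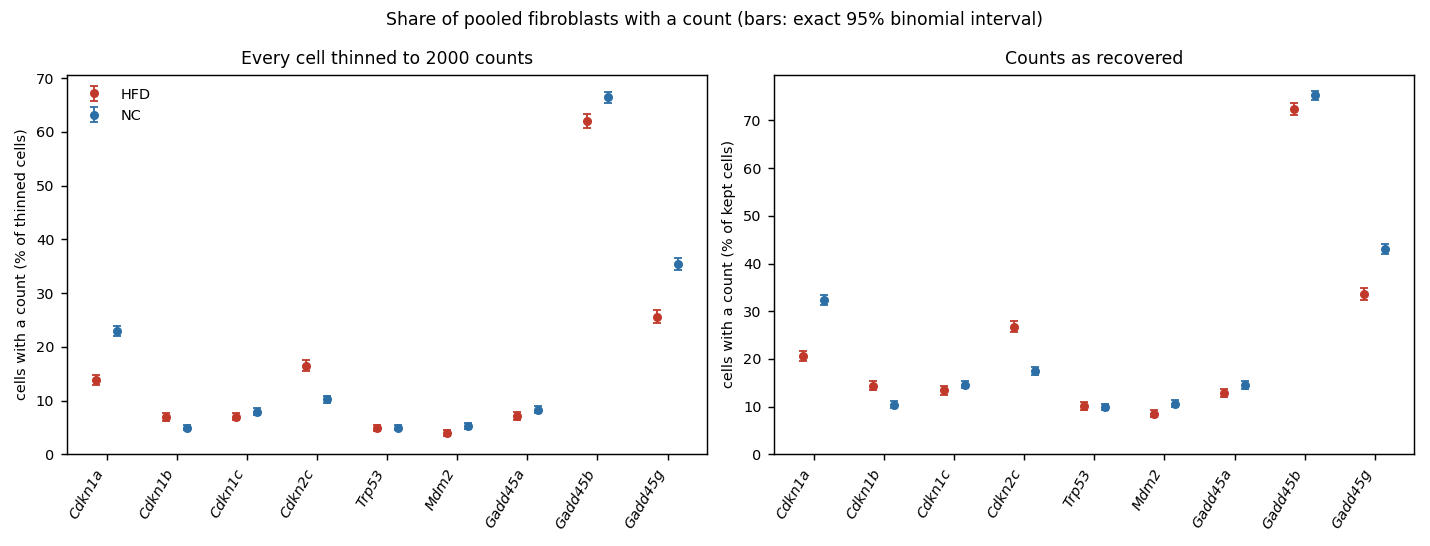
Share of pooled fibroblasts with a count of each measured gene, HFD in red left of NC in blue, in cells thinned to 2000 counts (left) and with the counts as recovered (right), with exact 95% binomial intervals as bars. Cdkn1a is at 13.8% of HFD and 22.9% of NC thinned cells, and Cdkn2c at 16.5% and 10.2%.

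A finer column of the annotation sets an SNAT2 subset (245 HFD and 359 NC cells) apart from the Asc1 class. There Cdkn1a was at 128 CPM in HFD and 269 CPM in NC (0.476, 0.299 to 0.738), Gadd45b at 891 and 1099 CPM (0.811, 0.677 to 0.970) and Gadd45g at 309 and 315 CPM (0.984, 0.710 to 1.36). Gadd45g thus differed little in the subset, whereas the remaining Asc1 cells gave 288 CPM in HFD and 517 CPM in NC (0.556, 0.522 to 0.591). The other 7 genes had fewer than 50 effective counts in the subset.

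Other p53 targets were near the background of all genes. Of 30 such genes 27 were measured, 0 were higher and 2 lower by size, where 5.45% of all genes were higher and 4.75% lower, and their median log2 ratio was −0.03, against 0.02 over all genes. Sesn2, a stress-induced sestrin, was at 4.71 CPM in HFD and 9.66 CPM in NC (0.487, 0.353 to 0.665), and the death receptor Fas at 69.2 and 107.9 CPM (0.642, 0.590 to 0.697). Pltp, a phospholipid transfer protein, was at 136 and 95.1 CPM (1.43, 1.34 to 1.54), and Phlda3, an inhibitor of Akt, at 103 and 85.4 CPM (1.21, 1.12 to 1.31). The list thus lay on both sides of 1, with 14 of the 27 below it. Of 15 measured regulators and relatives of p53, 0 passed the size rule, with Mdm4, a partner of Mdm2, at 40.2 and 33.1 CPM (1.22, 1.07 to 1.38), the deacetylase Sirt1 at 45.04 and 60.9 CPM (0.740, 0.665 to 0.822), the ribosomal protein Rpl5 at a ratio of 0.915 (0.857 to 0.977) and the ligase Cop1 at 0.896 (0.795 to 1.01).

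Among the cyclins and cyclin-dependent kinases, the targets of the CDK inhibitors, 1 of 11 measured genes was lower and 0 higher (all genes 4.75% lower and 5.45% higher). In lists of this size such counts, and those of the E2F, proliferation and kinase lists, cannot be told from the shares of all genes. That gene was Ccnd1, cyclin D1, at 4.91 CPM in HFD and 7.42 CPM in NC (0.663, 0.477 to 0.912). Ccnd2 was at 42.9 and 55.5 CPM (0.774, 0.693 to 0.864), the kinase assembly factor Mnat1 had a ratio of 1.26 (1.11 to 1.43), and Cdkn2d, the INK4 inhibitor p19, was at 38.8 and 33.2 CPM (1.17, 1.03 to 1.32). None of 13 measured pocket protein, E2F and DREAM genes, which act downstream of these kinases, passed the size rule. Named there by the same rule were E2f3 at 1.46 (1.15 to 1.86), Lin37 at 1.36 (1.09 to 1.69), E2f5 at 1.28 (1.03 to 1.60) and Lin52 at 1.34 (0.993 to 1.81). Few cells showed signs of division, with Mki67 counted in 9 of the 6089 cells from HFD and 12 of the 8140 from NC, and Top2a in 4 and 20. Of 18 proliferation markers 6 were measured and 0 passed the size rule, with Pcna at 51.7 and 64.7 CPM (0.800, 0.723 to 0.884), Tyms at 0.738 (0.579 to 0.936), Mcm4 at 1.17 (0.976 to 1.40) and Mcm6 at 0.743 (0.480 to 1.13).

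Of 17 measured genes that control CDK inhibitors, 2 were lower and 0 higher, against 4.75% and 5.45% of all genes. Cks2, a cofactor of cyclin-dependent kinases, was at 5.93 CPM in HFD and 11.8 CPM in NC (0.501, 0.376 to 0.661), and Myc, which represses Cdkn1a, at 25.2 and 42.04 CPM (0.599, 0.522 to 0.687). Cebpd had a ratio of 0.757 (0.744 to 0.770) and Klf4, an activator of Cdkn1a, one of 0.801 (0.779 to 0.823). Of 8 measured kinases that act with Gadd45 proteins, 0 passed the size rule, from Map2k3 at 0.740 (0.646 to 0.848) to Map2k4 at 1.19 (1.02 to 1.40), with Mapk14 at 1.14 (1.02 to 1.28) and Map2k7 at 1.15 (0.937 to 1.41).

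Genes induced by glucocorticoids, a list that holds Cdkn1a and Gadd45a, were lower by size in a larger share than all genes. The count was 8 of 14, Cdkn1a itself among the 8, against 4.75% of all genes. None of the 14 was higher, and the median log2 ratio was −1.22 over the 12 that are not among the 10 genes. Zbtb16 was at 15.2 CPM in HFD and 63.5 CPM in NC (0.240, 0.204 to 0.282), and Tsc22d3, Errfi1 and Sgk1 had ratios of 0.394 (0.373 to 0.417), 0.405 (0.387 to 0.424) and 0.418 (0.395 to 0.443). Their part in the Cdkn1a difference was not tested. Immediate early genes, which respond to tissue handling and share inducers with Gadd45b, showed 0 of 19 past the size rule in the pooled fibroblasts. There Hsp90aa1 was at 0.697 (0.678 to 0.718), Fosl2 at 0.797 (0.758 to 0.838), Fos at 1.21 (1.20 to 1.22) and Atf3 at 2477 CPM in HFD and 1981 CPM in NC. By class, 4 of 18 were lower in myofibroblasts (all genes 7.94%) and 4 of 19 in the class labelled pericytes (6.77%). None was higher there, and none passed the rule in the other classes.

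**Figure D4:**
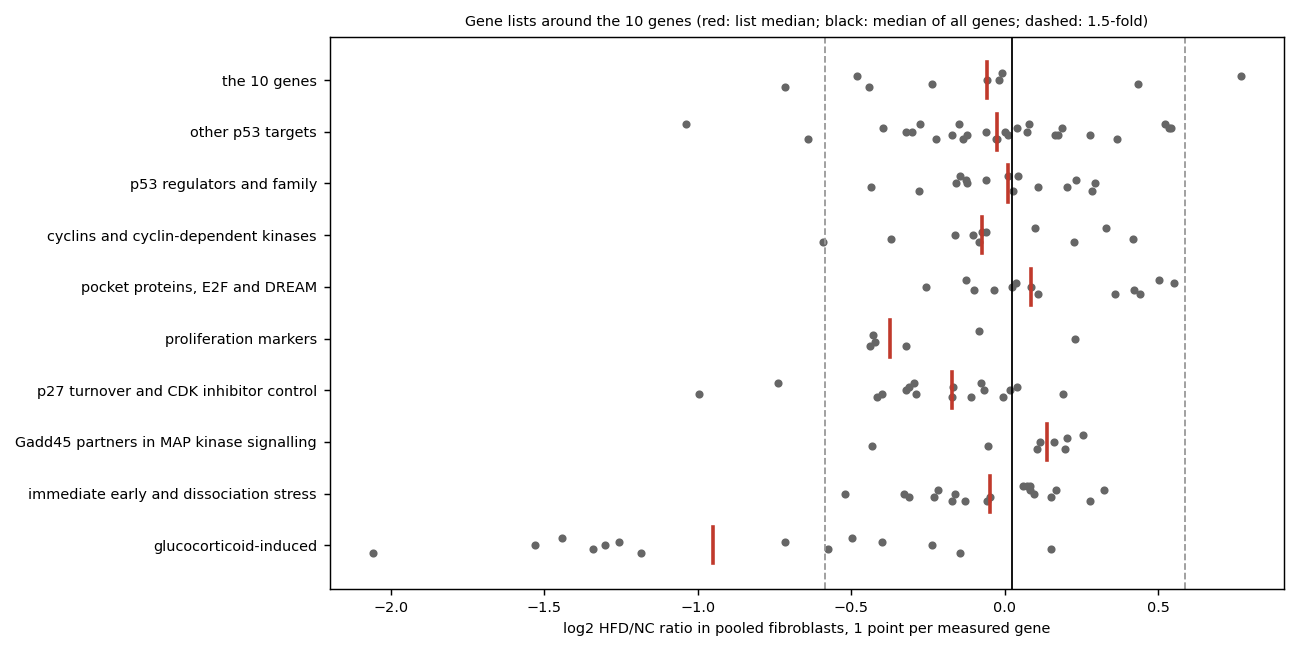
HFD over NC ratio (log2) in pooled fibroblasts of every measured gene of each list, one point per gene, with list medians in red, the median of all genes in black and 1.5-fold as dashed lines. The median is −0.06 for the 10 genes, −0.03 for other p53 targets and −0.95 for the glucocorticoid-induced list.

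The patterns most like those of the members were looked up over the 10 sums of class and library, among 10054 genes with at least 200 effective counts. The measure was Pearson's r of log2(CPM + 1), and the points share library and depth. Cdkn2c was closest to Gng11, Fhod1 and Snai2 (r = 0.989, 0.989 and 0.988), and Cdkn1a to Sdc4, Srf and Gm6793 (0.911, 0.909 and 0.908). Gadd45g was closest to Ctsc, Myc and Myh9 (0.966, 0.956 and 0.955), Gadd45b to Isy1, Sbds and Dnajb6 (0.979, 0.971 and 0.965) and Gadd45a to Mzt2, Dot1l and Cd14 (0.946, 0.943 and 0.924). Mdm2 was closest to Zbtb16, Ipo7 and Gm37399 (0.908, 0.894 and 0.888), Trp53 to Gnb2, 2310057M21Rik and Ptpn3 (0.951, 0.938 and 0.936), Cdkn1b to Tmem60, Mrpl10 and Klhdc1 (0.978, 0.971 and 0.945) and Cdkn1c to Tubgcp4, Dnm3 and Pros1 (0.962, 0.962 and 0.961). No member was among the 3 closest of another. Between members, Gadd45a and Gadd45b had an r of 0.875 and Cdkn2c and Gadd45g one of −0.88 over the same 10 sums.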

How the data were processed

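The deposited tables hold 1 row per cell. The deposited gene values were read as log2(CPM + 1), a unit inferred from the numbers because no header states it. A column of the deposited tables gives an estimated count in total for each cell (not whole for 7.24% of cells in HFD, 5.59% in NC). Per the file headers, other columns give the mitochondrial percent and the class. The submitters' processing notes name STAR and mm39. How reads or molecules were counted, and whether by strand, is not given in the sources used here. Counts came from reversing the log2 transform (98.8% of HFD and 98.96% of NC values were whole within 0.01) and were rounded. They did not behave like single molecules, with a median of 3.25 counts in HFD and 2.66 in NC per positive cell of rare genes (those in 0.1 to 1% of cells). Intervals were therefore exact conditional 95% Poisson intervals on effective counts, and shares have exact Clopper-Pearson intervals. Both cover counting error only, and the Poisson intervals are too narrow for abundant genes. The cell filter (500 genes or more, mitochondrial share up to 10%) removed 12.7% of the HFD cells and 9.71% of the NC cells. Doublets were not called. Kept cells held 71014948 HFD and 69940474 NC counts.

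HFD and NC libraries were compared within each class and pooled, with no test. The 10 genes and the lists were chosen with earlier results of these data known. Named genes are all members, up to 4 measured genes per list (interval bound nearest 1 farthest from 1) and up to 3 genes of most similar pattern. The gene name table gave symbols for 20180 identifiers (96.03%). By exons of the GENCODE M21 annotation, opposite-strand genes overlap Cdkn1a, Cdkn1c and Gadd45a, so without strand their reads cannot be told apart from those of the overlapping gene. Python 3.11.15 with numpy 2.4.6, scipy 1.17.1, pandas 2.3.3 and matplotlib 3.10.9 was used, and edgeR 4.0.16 for TMM scaling factors alone, with no test. The calculation was tested on simulated data. Alternatives covered cell filters, scaling, pooling, cells with many counts of a gene (10 cells, or 2%), minimum counts, thinning, depth ranges, immune-positive cells and shared barcodes.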

Additional observations from a re-analysis of the deposited data

Results flagged for a closer look

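Gadd45a stood out because its difference between the diets ran in opposite directions in 2 classes, past 1.5-fold in both. The HFD over NC ratio was 1.69 in myofibroblasts and 0.614 in the class labelled pericytes. With 1 library per diet the difference between the classes was not tested. Without the 2% of cells with the most Gadd45a counts, the ratios were 1.55 and 0.570, and among cells of 4000 to 12000 counts the myofibroblast ratio was 2.38. With the 10 cells of each library with the most Gadd45a counts left out, the ratios of these classes were 1.248 and 0.864. The directions were then still opposite, but neither ratio passed 1.5-fold.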

How the results depend on the processing

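In the pooled fibroblasts 1 of the 10 genes was higher and 1 lower by size under every alternative tried except a looser size rule of 5 to 4, which gave 2 higher and 3 lower, and leaving out the 2% of cells with the most counts of the gene, which gave 2 higher and 2 lower. Over the 5 classes, the 3 higher values became 1 under the stricter cell filter (1000 genes, 5% mitochondrial), 5 with the mean of deposited CPM over cells, 5 without the 10 cells with the most counts of the gene, 6 with cells thinned to 2000 counts, 5 without cells holding an immune marker count, 6 without the top 2% of cells and 8 with the looser rule, and the 7 lower values became 14 with that rule; other settings gave 3 or 4 higher and 6 to 8 lower. Leaving out 10 cells per library removes unequal shares of a class whose cell numbers differ, such as the class labelled pericytes. Of the class ratios under it, only those of Gadd45a in myofibroblasts and in the class labelled pericytes are given, and both fell within the size rule. Without the top 2% of cells, other p53 targets had 4 higher and 4 lower (0 and 2 as reported) and pocket protein, E2F and DREAM genes 4 and 1 (0 and 0). The settings by depth range, top 2% of cells, immune-positive cells and shared barcodes were chosen after seeing the data. Of the 12 values past the size rule, 1 turned direction, the log2 ratio of Cdkn1a in Gas6 fibroblasts at 0.24 among cells of 4000 to 12000 counts, and the cause was not tested. Of the 39 values within the size rule, 21 turned direction under at least 1 setting. Scaling moved the median of all genes by at most 0.08 (log2). Depth ranges with fewer than 20 cells of a class in either library gave no value there. No paired analysis was possible because each diet has 1 library. Cdkn2b, and Cdkn1b, Cdkn2c and Mdm2 in myofibroblasts, had too few counts to be measured, so a difference there was not detectable at this depth.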
